A study of Homo sapiens with 9 samples.

Results

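RNA of ALL-SIL cells was compared between the 3 libraries that carry replicate number 1 in their titles and the 6 libraries that carry number 2 or 3, out of 9 in all. ALL-SIL is an established human T-cell acute lymphoblastic leukaemia line that depends on the homeobox transcription factor TLX1. Cells were electroporated with a scrambled siRNA, labelled with a dose of 400 nM, or with an siRNA against TLX1, either s46 or s47, for which no dose is labelled. RNA was taken after 24 h, ribosomal RNA was depleted, and stranded total RNA libraries were sequenced. Each siRNA group contributed 1 library to each replicate number, so number 1 holds 1 scrambled, 1 s46 and 1 s47 library, and numbers 2 and 3 hold 2 of each. The siRNA group was a term of the fit, which keeps the mean TLX1 knockdown out of the comparison. A knockdown that differs in strength between numbers would stay in it. All groups share the line, the medium with 20% serum and the electroporation, and no untreated cells are among the libraries. Members were chosen by the titles alone. The labels give the number and nothing else about it. Since they do not say that replicates were grown apart, the p-values refer to variation among these 9 libraries, some of which may be technical. Most libraries of the same number also varied together, whereas the test treats all 9 as independent. Its p-values therefore do not extend to further replicate numbers.

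T-cell acute lymphoblastic leukaemia arises from thymic precursors, and lines with TLX1 are held near the cortical stage, at which RAG1 and RAG2 cut T-cell receptor genes and CD1 molecules are displayed. Cell division in such cells is driven by D-type cyclins, which with CDK4 and CDK6 open the way from G1 into DNA replication, and by cyclin B with CDK1, which drives mitosis. Ribosomal protein transcripts and their relatives carry a terminal oligopyrimidine tract and are controlled together with growth.

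TLX1, the targeted gene, was examined first. It stood at 198.1 CPM (read counts scaled to the library total and by the trimmed mean of M values, TMM) in scrambled number 1, against 188.2 and 171.3 in scrambled numbers 2 and 3, and at 63.7 in s46 number 1 and 63.5 in s47 number 1, against 73.7 to 87.3 in the other 4 TLX1 siRNA libraries. Every library labelled with a TLX1 siRNA therefore lay below every scrambled one at each number. The number 1 difference of TLX1 was -0.15 ± 0.11 (log2, SE), which did not pass the test (edgeR adjusted p 0.507), and it was 0.14 with scrambled, -0.38 with s46 and -0.23 with s47. Number 1 was thus the lowest library for TLX1 with each TLX1 siRNA and the highest with scrambled. This contrast between groups was 0.44 and did not pass (edgeR interaction adjusted p 0.154). Its part in the other gene results was not tested.

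Sense gene reads ranged from 21134650 to 33393740 per library. Scrambled number 1 was the shallowest and stood apart from the rest, with 14.4% multimapping reads, 39.9% of reads in genes and 1.08% of reads on mitochondrial transcripts, so the main counts are given with and without it. Unmapped reads made up 5.43% to 6.70% of reads in number 1 and 4.52% to 5.08% in numbers 2 and 3, and ambiguous reads made up 2.12% to 3.25% and 3.61% to 4.44%, with no overlap in either. In each siRNA group number 1 also had the lowest share of reads in genes (39.9% to 55.3%, against 52.7% to 59.9% over the other 6). All 3 differences reached the smallest p that the 27 ways of choosing 1 library per group allow (exact permutation test, two-sided p 0.0370, adjusted p 0.0864 over 7 read measures). Their part in the gene results was not tested. The summed level of 10 markers of the line, among them CD3D, CD7 and LCK, was 1371 to 1559 CPM in number 1 and 1343 to 1531 CPM in the other 6. PTCRA, which encodes the pre-T-cell receptor alpha chain, was at most 0.532 CPM and CD2 at most 5.75 CPM in any library, so these markers are low or near 0 at every number. The summed B-cell, myeloid, cytotoxic, red-cell and fibroblast markers overlapped between number 1 and the rest; only 4 of 13, 1 of 16, 5 of 16, 1 of 15 and 2 of 12 listed genes could be tested. The red-cell value was TFRC alone (1802 to 3378 CPM), and the fibroblast sum was nearly all VIM (595 to 808 CPM). Both were high in every library, so these values cannot show whether such cells were present. In bulk RNA, fewer cells of a type and less RNA per cell cannot be told apart.

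The comparison asks which genes vary together between repeats of the same design, apart from TLX1. Of 16072 genes tested, 225 differed between number 1 and numbers 2 and 3 at an adjusted p under 0.05 (1.4%; edgeR quasi-likelihood test with Benjamini-Hochberg adjustment), 112 higher (0.697%) and 113 lower (0.703%). At an unadjusted p under 0.05 there were 2807 genes (17.5%). Each of the 225 genes lay on the same side of both other libraries in all 3 siRNA groups. Over all genes tested, 1411 lay above in all 3 groups (8.78%) and 1695 below (10.5%). The difference itself was above 0 for 7731 genes and below 0 for 8341. All 3 number 1 libraries lay above all 6 others for 99 of the called genes and below them for 104, against 645 (4.01%) and 762 (4.74%) of all genes. The call was made on these same libraries, which makes agreement between groups and such gaps likely, so neither adds support. The median difference of the called genes was 1.12 among the higher and -1.28 among the lower, and 66 and 68 of them exceeded a log2 difference of 1. Within the TLX1 siRNA libraries alone, 239 genes passed (1.49%), and 140 of these were among the 225. Without scrambled number 1 the count was 172 (1.07%), of which 124 were shared. Without s46 number 1 it fell to 54 and without s47 number 1 to 131, so s46 number 1 carried the count more than any other library. It was 109 without s47 number 3, 129 without scrambled number 3, 138 without s46 number 3 and 148 without s46 number 2. Against number 2 only, 13 genes passed, and 35 of the named genes lost their call (edgeR adjusted p up to 0.416). The 8 named genes that kept it were CCND2, LINC01819, PRTG, MSR1, NFATC4, SRGAP3, DGKE and CHD7. Against number 3 only, 158 genes passed.

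**Figure D1:**
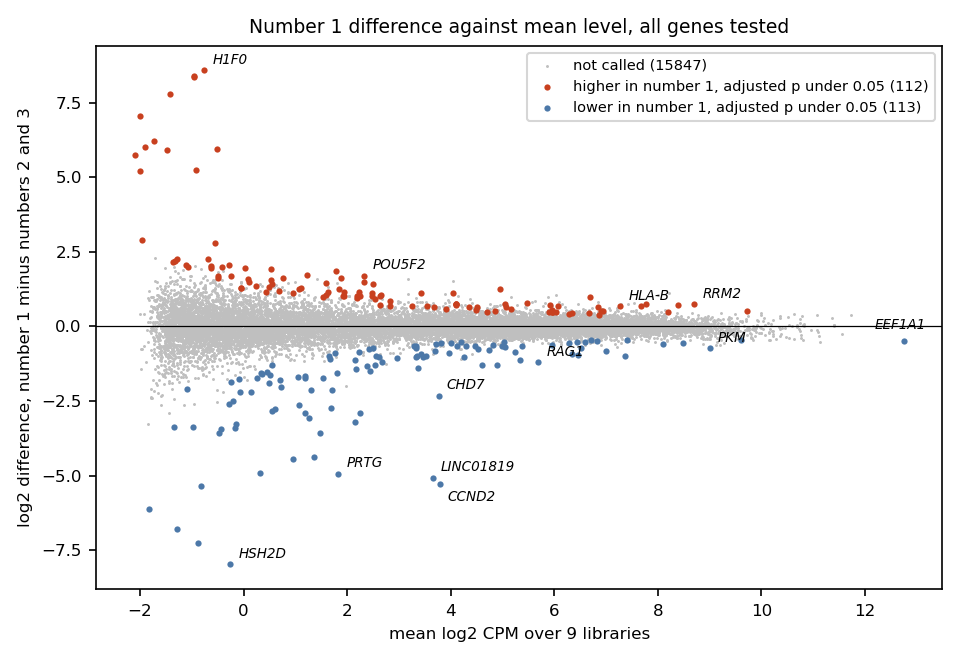
Log2 difference of number 1 against numbers 2 and 3 (vertical axis) by mean log2 CPM over the 9 libraries (horizontal axis), 1 point a gene, for 16072 genes. The 112 genes called higher are red and the 113 called lower are blue; CCND2 and LINC01819 lie far below genes of a similar level, and the widest differences upward are all at low levels.

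Some genes were read at clear levels in one set of libraries and at or near 0 in the other. To describe them, genes were taken whose lowest library on one side was at least 4 times the highest on the other and at least 0.3 CPM. This rule was chosen after the values were seen, so the list carries no test of its own. It took 16 genes present in numbers 2 and 3 (0.0996% of those tested), on 12 chromosomes, and 12 present in number 1 (0.0747%), on 10 chromosomes. All 28 were also called by edgeR, which their choice makes likely. Of the 28, 27 also passed in the TLX1 siRNA libraries alone, which is likely too, since those libraries were part of the choice. The 12 genes present in number 1 had few or no reads in numbers 2 and 3. They passed the filter on low counts only through the number 1 libraries. Of the 56 tested protein-coding genes on either side of them 0 were called (edgeR), which at 1.4% over all genes says nothing particular about the neighbours.

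CCND2 (ENSG00000118971.7; chromosome 12, 4273772 to 4305350, GRCh38) encodes cyclin D2, the D-type cyclin common in lymphocytes. It stood at 0.359 CPM in scrambled number 1, 0.572 in s46 number 1 and 0.599 in s47 number 1, and at 16.6 to 23.7 CPM (median 20.4) in numbers 2 and 3. All 3 number 1 libraries thus lay far below the other 6, with no overlap. The log2 difference was -5.29 ± 0.18 (SE; edgeR adjusted p 1.75e-08), a 39.2-fold lower level, and -5.56, -5.22 and -5.19 with scrambled, s46 and s47. Its neighbours PARP11 and TIGAR were not called (0.25 and -0.19).

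LINC01819 (chromosome 2, 43027853 to 43039547), a long intergenic non-coding RNA that lies between MTA3 and ZFP36L2, followed the same pattern. It read 0.538, 0.496 and 0.599 CPM in the scrambled, s46 and s47 libraries of number 1 and 13.6 to 22.8 CPM (median 19.7) elsewhere. The difference was -5.07 ± 0.19 (SE; edgeR adjusted p 2.5e-08), and neither flanking gene was called. PRTG (chromosome 15, 55611546 to 55743090) encodes protogenin, a transmembrane receptor of the immunoglobulin superfamily known from embryos. It read 0.359, 0.114 and 0.0374 CPM in number 1 and 4.35 to 5.95 CPM (median 4.95) in the rest, a difference of -4.94 ± 0.38 (SE). Again no number 1 library came near the lowest of the other 6.

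Several further genes of this kind encode signalling and surface proteins. MSR1, a macrophage scavenger receptor, had no read in scrambled number 1 and 0.267 and 0.225 CPM in the s46 and s47 libraries, against 3.23 to 3.84 CPM (median 3.64) in numbers 2 and 3 (-4.37 ± 0.42, SE). NFATC4, a transcription factor activated by calcineurin, read 0.314, 0.305 and 0.337 CPM against 2.73 to 5.12 (median 3.81; -3.58 ± 0.28, SE). Its neighbour NYNRIN also lay lower in all 3 number 1 libraries, at 0 to 0.269 CPM against 0.452 to 1.54, and missed the threshold (-2.52, edgeR adjusted p 0.0537). SRGAP3, a GTPase-activating protein of the Slit and Robo pathway, read 1.03, 0.572 and 0.449 CPM against 4.17 to 8.26 (median 6.02; -3.19 ± 0.27, SE). PKIA, an inhibitor of protein kinase A, read 0.224, 1.37 and 1.05 CPM against 5.62 to 7.63 (median 6.52; -2.91 ± 0.33, SE). In each of the called genes here the sets did not overlap, and the call held without each of the 9 libraries in turn.

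For 3 genes of this set, number 1 held no read at all. HSH2D, an adaptor of blood cells with an SH2 domain, had 199 reads over the 6 other libraries (0.877 to 1.27 CPM) and was at least 27.6-fold lower in number 1, taking 3 reads over the group as the floor. TNFRSF4, the co-stimulatory receptor OX40 of activated T cells, had 122 reads (0.573 to 0.808 CPM) and was at least 17.1-fold lower. SLC25A13, the mitochondrial aspartate and glutamate carrier citrin, had 88 reads (0.303 to 0.754 CPM) and was at least 12.2-fold lower. Reads of all 3 genes were thus spread over every one of the 6 libraries and missing from every number 1 library. ZBTB8A, a zinc finger gene, had 1 read in number 1 and 128 elsewhere, a ratio of 53.4 (95% exact Clopper-Pearson interval 9.42 to 2126, counting error only), and IRF8, an interferon regulatory factor of myeloid and B cells, had 3 and 80, a ratio of 11.1 (3.67 to 55.1). The call of SLC25A13 was lost without s46 number 1 (adjusted p 0.0724), and that of IRF8 without any number 1 or number 2 library or scrambled number 3 (up to 0.154). The others were DACH1, a transcriptional corepressor (0 to 0.153 CPM against 1.21 to 2.35), the pseudogene ZNF826P (0 to 0.267 against 1.98 to 4.16), the antisense RNA IGFL2-AS1 (0.0448 to 0.114 against 0.591 to 1.69) and RETREG1, a receptor for autophagy of the endoplasmic reticulum (0 to 0.187 against 0.765 to 1.72). RETREG1 lost its call without s46 number 1 (adjusted p 0.0983).

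**Figure D2:**
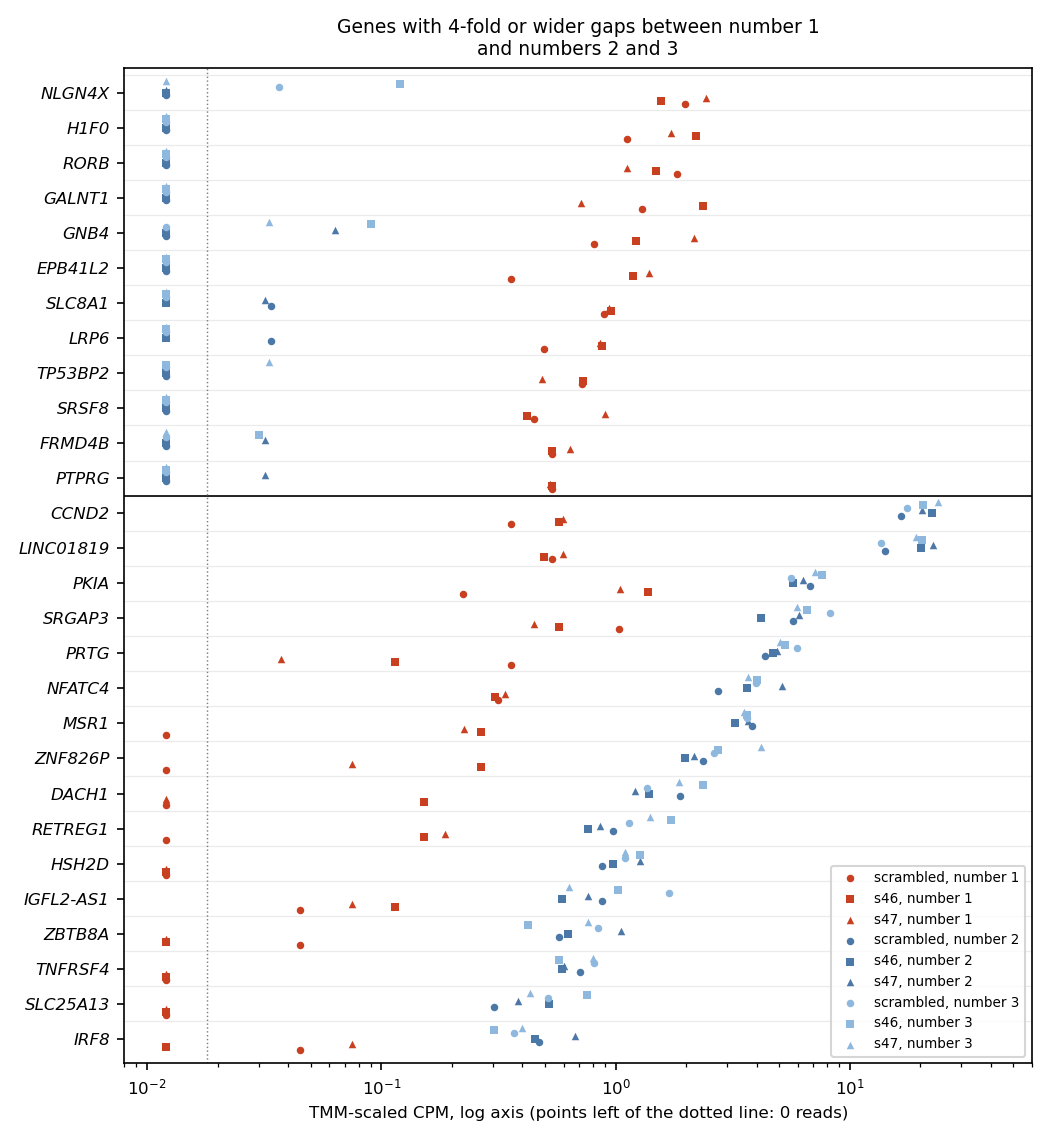
TMM-scaled CPM (horizontal log axis) of 28 genes in each of the 9 libraries, with number 1 in red, number 2 in dark blue and number 3 in light blue, and circles, squares and triangles for scrambled, s46 and s47. The 16 genes below the line are present in numbers 2 and 3 and the 12 above it in number 1; points left of the dotted line have 0 reads.

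The 12 genes present in number 1 were all protein-coding and all low, with a highest value of 2.43 CPM. H1F0, the linker histone H1.0 of slowly dividing cells, had 25, 58 and 46 reads in the scrambled, s46 and s47 libraries of number 1 (1.12, 2.21 and 1.72 CPM) and no read in the other 6, so it was at least 101-fold higher. RORB, an orphan nuclear receptor of retina and brain, had 41, 39 and 30 reads (1.84, 1.49 and 1.12 CPM) against none, at least 89.2-fold higher. GALNT1, which adds the first sugar of mucin-type O-glycans, had 29, 62 and 19 reads (1.30, 2.36 and 0.711 CPM) against none, at least 87.7-fold higher. These genes were therefore read in every number 1 library whichever siRNA was used, and in no other. EPB41L2, a membrane skeleton protein of the band 4.1 family, was at least 58.7-fold higher, and SRSF8, a splicing factor gene with close copies elsewhere in the genome and for that reason uncertain, at least 35.4-fold higher. SRSF8 lost its call without s46 number 1 (adjusted p 0.0584).

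The other 7 had a few stray reads in numbers 2 and 3. NLGN4X, a synaptic adhesion protein that has a close copy in the genome, had 44, 41 and 65 reads in number 1 (1.97, 1.56 and 2.43 CPM) and 5 reads over the other 6 libraries. GNB4, a beta subunit of heterotrimeric G proteins, read 0.807, 1.22 and 2.17 CPM against at most 0.0905. Over the summed reads, LRP6, a Wnt co-receptor, was 137 times as high (95% exact interval 23.5 to 5488), TP53BP2, which binds p53, 115 times (19.7 to 4636), PTPRG, a receptor tyrosine phosphatase, 95.8 times (16.2 to 3879), SLC8A1, a sodium and calcium exchanger, 83.9 times (22.4 to 706), and FRMD4B, a scaffold protein, 51.5 times (13.4 to 439). The wide intervals follow from 1 or 2 reads on the low side.

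RefSeq promoters (GRCh38.p14, 250 bases before to 50 after the start of transcription) were found for 19 of the 28 genes. One from each set is shown, to show the sequence at the start of a gene of each kind, and CG dinucleotides are in capitals. RORB, present in number 1, has the promoter at chr9:74497085-74497384 on the plus strand, and PRTG, present in numbers 2 and 3, has it at chr15:55743103-55743402 on the minus strand.
RORB: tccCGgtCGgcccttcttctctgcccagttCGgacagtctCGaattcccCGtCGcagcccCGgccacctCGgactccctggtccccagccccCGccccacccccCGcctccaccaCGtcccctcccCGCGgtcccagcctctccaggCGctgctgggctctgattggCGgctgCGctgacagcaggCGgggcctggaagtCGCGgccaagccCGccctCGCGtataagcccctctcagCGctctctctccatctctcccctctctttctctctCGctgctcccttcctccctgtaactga
PRTG: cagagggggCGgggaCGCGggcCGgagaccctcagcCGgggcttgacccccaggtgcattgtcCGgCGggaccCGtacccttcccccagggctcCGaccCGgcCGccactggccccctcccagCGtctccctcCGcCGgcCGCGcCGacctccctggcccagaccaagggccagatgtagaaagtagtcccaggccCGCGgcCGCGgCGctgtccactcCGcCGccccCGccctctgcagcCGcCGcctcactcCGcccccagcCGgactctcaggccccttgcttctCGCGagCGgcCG
The RORB promoter holds 24 CG dinucleotides and that of PRTG 33. The median was 25 over the 10 genes present in number 1 and 15 over the 9 present in numbers 2 and 3, against 26 over 9413 tested genes with a promoter entry. At least 10 CG were held by 6 of the 10 (60%), 7 of the 9 (77.8%) and 87.4% of all. No methylation was measured, and the counts of CG are a description.

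Among the 113 lower genes, the 12 with the widest differences at a mean log2 CPM of at least 1 also included RAP2B, PLCB4, KLF2, DGKE and CHD7. RAP2B, a Ras-related GTPase, read 0.134, 0.343 and 0.674 CPM in the scrambled, s46 and s47 libraries of number 1 and 2.06 to 3.98 (median 3.39) in the rest (-3.08 ± 0.33, SE; edgeR adjusted p 0.000727). PLCB4, a phospholipase C, read 0.627, 0.343 and 0.262 CPM against 2.05 to 4.74 (median 2.98; -2.92 ± 0.35, SE). DGKE, a diacylglycerol kinase, read 0.403, 0.343 and 0.562 CPM against 1.91 to 3.53 (median 2.76; -2.65 ± 0.27, SE). PLCB4 makes and DGKE consumes diacylglycerol, and neither gene's libraries overlapped. CHD7, a chromatin remodelling enzyme, was lower from a higher level, at 3.32, 4.20 and 3.56 CPM against 14.2 to 23.3 (median 17.4; -2.32 ± 0.19, SE; edgeR adjusted p 0.000107). The calls of these genes held without each of the 9 libraries in turn.

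KLF2, a transcription factor of resting T cells, and S1PR1, the receptor that guides T cells out of the thymus and a known KLF2 target, were both lower. KLF2 read 0.941, 0.191 and 0.861 CPM in number 1 against 3.17 to 4.85 (median 4.51; -2.74 ± 0.36, SE; edgeR adjusted p 0.00275). S1PR1 read 1.30, 1.45 and 1.69 CPM against 2.70 to 5.88 (median 4.23; -1.56 ± 0.28, SE; edgeR adjusted p 0.0171). No library overlapped for either gene. Of the 22 tested genes listed for mature T cells and thymic egress these were the only 2 called, against 1.4% of all genes tested. The list's median was -0.14 against -0.01 over all genes tested. KLF2 also stands in the immediate early list, of which FOS, a partner of JUN in the AP-1 factor, was the other called member, at 0.762, 0.839 and 1.05 CPM against 2.23 to 3.64 (median 2.83; -1.66 ± 0.26, SE; edgeR adjusted p 0.00718). The immediate early list had 2 of 23 members called, both lower, against 1.4% called over all genes tested. Its median was -0.23, with medians of -0.08, -0.21 and -0.26 with scrambled, s46 and s47. FOS and S1PR1 lost their calls without s46 number 1 (adjusted p 0.0791 and 0.144).

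Of 20 tested genes of cortical thymocytes, RAG1 and CD1E fell, 9 lay above 0 and 11 below, and the list's median was -0.02. Over all 16072 genes tested, 7731 lay above 0, 8341 below, 1.4% were called and the median was -0.01. RAG1, which with RAG2 cuts receptor genes, read 17, 27.5 and 37 CPM in the scrambled, s46 and s47 libraries of number 1 and 30.1 to 99.9 (median 61.6) in the others (-1.2 ± 0.18, SE; edgeR adjusted p 0.00696). The raw ranges of RAG1 overlap over the 9 libraries, while within each siRNA group number 1 was the lowest library (-0.99, -1.48 and -1.12). RAG2, named after its values were seen, read 4.62, 11.6 and 15.7 CPM against 8.90 to 39.8 and missed the threshold (-1.09, adjusted p 0.072). Other members of the list went the other way without a call, among them DNTT (0.45, edgeR adjusted p 0.176) and CD38 (0.56, adjusted p 0.354). CD1E, a lipid-presenting molecule of cortical thymocytes, read 32.7, 61.7 and 70 CPM against 72.8 to 145.4 (median 91; -0.97 ± 0.21, SE; adjusted p 0.0477). The call of RAG1 was lost without s46 number 1 (adjusted p 0.0888), and that of CD1E without any library but s46 number 2 and s47 number 2 (up to 0.201).

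Cytosolic ribosomal protein genes lay lower as a group: all 79 tested members had a difference below 0, 56 lay below both other libraries in all 3 siRNA groups, and 2, RPL35 and RPS14, passed the test. Over all 16072 genes tested, 8341 lay below 0, 10.5% lay below in all 3 groups and 1.4% were called. The 2 calls are thus few, and members controlled together are not separate evidence. The list's median was -0.33, against -0.01 over all genes, and -0.51 with scrambled, -0.29 with s46 and -0.21 with s47. Their summed level was 29457 CPM in scrambled number 1, 35715 in s46 number 1 and 39207 in s47 number 1, and 38637 to 48391 CPM (median 43474) in the others, so s47 number 1 lay within that range. RPL35 of the large subunit read 191.2, 202.6 and 227.6 CPM against 256.7 to 338.6 (median 317.8; -0.57 ± 0.11, SE; edgeR adjusted p 0.0195), and RPS14 of the small subunit read 267.8, 266.2 and 287.6 against 360.3 to 451.2 (median 392.9; -0.55 ± 0.10, SE; adjusted p 0.0244), with no overlap. Without scrambled number 1 the list's median was -0.24. RPL35 lost its call without s46 number 1, 2 or 3 or s47 number 1 or 3 (up to 0.171), and RPS14 without number 1 of either TLX1 siRNA or any number 3 library (up to 0.177).

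Further genes were examined singly. EEF1A1, the elongation factor that brings transfer RNA to the ribosome, read 4713, 5518 and 6036 CPM in number 1 against 7314 to 8354 (median 7432; -0.49 ± 0.11, SE; edgeR adjusted p 0.0432), and RACK1, a protein of the small subunit, read 563.7, 616.2 and 681.2 against 784.5 to 887.6 (-0.47 ± 0.10, SE; adjusted p 0.0371). Both were named after their values were seen, and the calls are weak, being lost without 7 (EEF1A1) and 8 (RACK1) of the 9 libraries, with adjusted p up to 0.196 and 0.198. Of 20 tested host genes of small nucleolar RNAs, DANCR alone was called, at 3.27, 3.62 and 3.86 CPM against 6.24 to 8.38 (median 7.10; -1.01 ± 0.16, SE; adjusted p 0.00745), and the list's median was -0.38. The call of DANCR was lost without s46 number 1 (0.0816). Of 52 MYC and ribosome biogenesis genes none was called, 45 lay below 0 and the median was -0.18, with -0.32, -0.11 and -0.04 by siRNA group. Of all 16072 genes tested, 8341 lay below 0 and 1.4% were called. The median of number 2 minus number 3 was 0.17 for the host genes and 0.27 for the MYC list. Summed genes of the MYC list stood at 5822 to 8227 CPM in number 1, 8303 to 9041 in number 2 and 6227 to 8046 in number 3. For that list number 3 thus lay close to number 1.

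Genes of cell division were taken by phase. Of 54 tested G2/M and mitotic genes, HMMR, CCNB1 and KIF20A fell, 46 lay below 0 and the median was -0.22, with -0.51, -0.18 and -0.19 by siRNA group. Of all 16072 genes tested, 8341 lay below 0 and 1.4% were called. CCNB1, the cyclin that enters mitosis with CDK1, read 93.1, 98.3 and 110.5 CPM in the scrambled, s46 and s47 libraries of number 1 and 149.4 to 271.8 (median 192.3) in the others (-0.97 ± 0.19, SE; edgeR adjusted p 0.0263). HMMR, a spindle protein, read 66.4, 93.4 and 94.8 against 129.2 to 185.3 (median 144.2; -0.82 ± 0.15, SE; adjusted p 0.0191), and KIF20A, a kinesin of cytokinesis, 45.5, 52.1 and 56.2 against 77.6 to 125.8 (median 94.3; -0.92 ± 0.18, SE; adjusted p 0.0281). The number 1 libraries were the lowest for all 3 genes, without overlap. HMMR lost its call without s46 number 1 (0.0702), and CCNB1 and KIF20A without any number 1 library or s46 number 2 (up to 0.154 for both).

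Of 59 G1/S and DNA replication genes, 53 lay above 0, RRM2 rose and CCND2 fell, and the median was 0.18, with 0.06, 0.24 and 0.27 by siRNA group. Of all 16072 genes tested, 7731 lay above 0 and 1.4% were called. RRM2, the small subunit of ribonucleotide reductase, read 549.0, 581.5 and 570.3 CPM in number 1 and 283.2 to 415.3 (median 333.6) in the others (0.74 ± 0.13, SE; edgeR adjusted p 0.0149), a 1.67-fold higher level without overlap; the call was lost without s46 or s47 number 1 (up to 0.142). Of the 60 replication-dependent histone genes, HIST1H1E, a linker histone, was higher at 1076, 933.0 and 1186 CPM against 639.9 to 844.8 (0.52 ± 0.11, SE; adjusted p 0.0392), and 46 lay above 0 with a median of 0.16, and of -0.04, 0.12 and 0.32 by siRNA group. HIST1H1E has similar copies, and its call was lost without 6 of the 9 libraries (s46 or s47 number 1, s46 number 2 and any number 3 library; up to 0.171). Both lists also differed between numbers 2 and 3, where neither holds number 1: the median of number 2 minus number 3 was -0.26 for G1/S genes, -0.40 for histones and 0.35 for G2/M genes. Summed G2/M genes stood at 11697 to 12404 CPM in number 1, 15235 to 16900 in number 2 and 12330 to 12954 in number 3, so number 3 lay close to number 1 and number 2 above both.

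**Figure D3:**
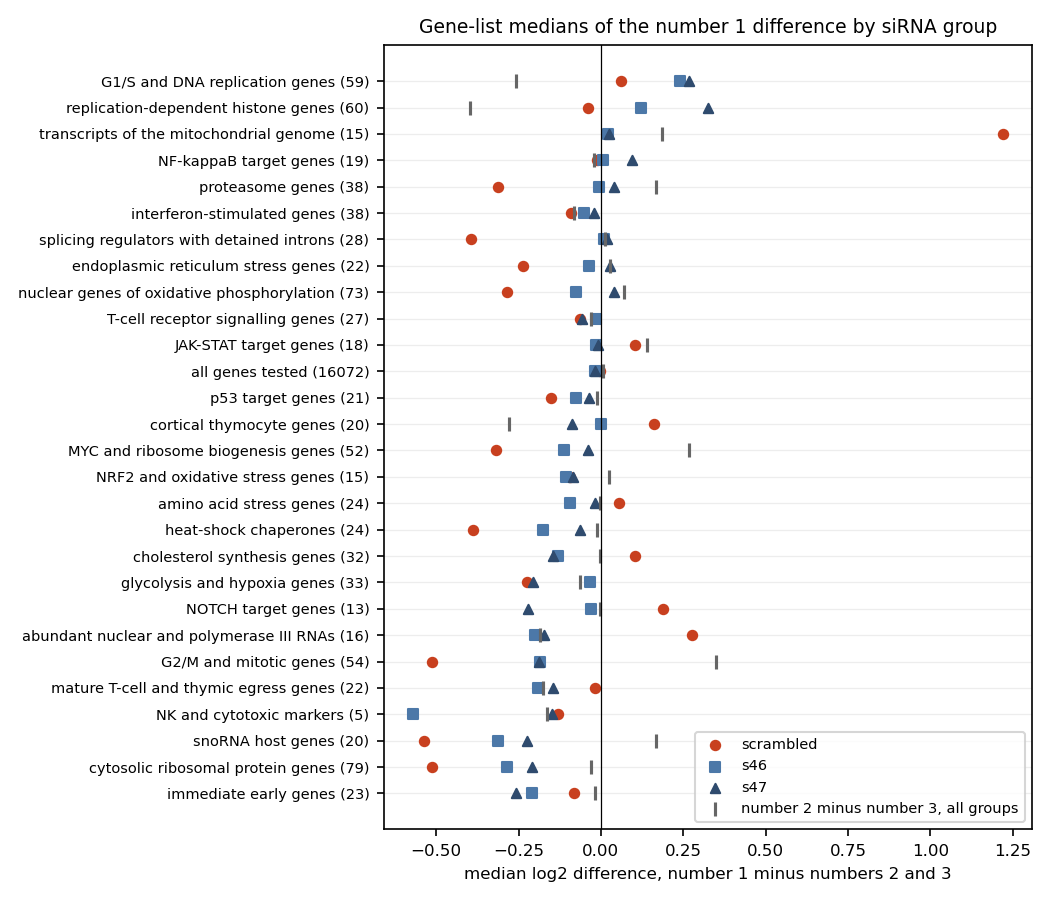
Median log2 number 1 difference of each gene list with at least 5 tested genes (number in brackets), by siRNA group, with the median of number 2 minus number 3 as a grey tick. Ribosomal protein and snoRNA host genes lie below 0 in all 3 groups; mitochondrial transcripts lie at 1.22 with scrambled and near 0 with s46 and s47.

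Metabolic, stress and immune lists held 1 or 2 called members each, against 1.4% called over all genes tested. Of 33 glycolysis and hypoxia genes PKM and PFKFB4 fell, with a median of -0.20. PKM, the pyruvate kinase that ends glycolysis, read 363.1, 341.9 and 370.0 CPM in number 1 against 548.1 to 636.2 (median 579.5; -0.72 ± 0.09, SE; edgeR adjusted p 0.00233), without overlap, and kept its call without each library. PFKFB4, which sets fructose 2,6-bisphosphate, was lower by -1.40 ± 0.27 (SE; adjusted p 0.0263) with overlapping raw ranges, and lost its call without any number 1 library or scrambled number 3 (up to 0.0974). Of 38 interferon-stimulated genes IFIT1 and MX2, both antiviral effectors, fell, and the median was -0.09. IFIT1 read 2.11, 1.75 and 1.42 CPM against 2.70 to 4.81 (-1.10 ± 0.19, SE; adjusted p 0.014) and lost its call without s46 or s47 number 1 (up to 0.109). MX2 read 118.1, 142.6 and 144.6 against 156.7 to 205.8 (-0.47 ± 0.09, SE; adjusted p 0.0192) and lost its call without 6 of the libraries, namely s46 or s47 number 1, s46 number 2 and any number 3 library (up to 0.171). Of 24 heat-shock chaperones HSPA1B, which has a near-identical copy and is uncertain, was lower (-0.59 ± 0.12, SE; adjusted p 0.0373), and this was lost without 7 of the 9 libraries, all but scrambled numbers 1 and 2 (up to 0.216). Of 19 NF-kappaB targets REL, a subunit of NF-kappaB, rose at 56.0, 41.8 and 36.3 CPM against 25.4 to 32.6 (0.67 ± 0.11, SE; adjusted p 0.00988), and lost its call without s46 number 1 (0.0745).

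No member was called among the 22 endoplasmic reticulum stress, 24 amino acid stress, 15 NRF2, 21 p53, 32 cholesterol synthesis, 73 nuclear oxidative phosphorylation, 16 abundant nuclear RNA, 38 proteasome, 28 detained-intron splicing, 27 T-cell receptor signalling and 13 NOTCH genes tested. Their medians ran from -0.19 (p53 targets) to 0.04 (NOTCH targets). Members near the threshold included TP53INP1 of the p53 list (-0.59, edgeR adjusted p 0.0538), SCARNA13, a small Cajal body RNA (-0.47, adjusted p 0.0674), and DDIT3 of the amino acid stress response (-0.57, adjusted p 0.0725). Of the 18 JAK-STAT targets, CCND2 was the only called member, against 1.4% called over all genes tested. PRF1, the pore-forming protein of cytotoxic cells and 1 of 5 tested cytotoxic markers, read 0.0448, 0.153 and 0.0374 CPM in number 1 against 0.337 to 0.771, without overlap, and did not pass (-2.62, adjusted p 0.0568).

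The 112 higher genes differed from the lower ones in kind and position. Of the higher genes 68.8% were protein-coding, 25.9% had a single exon and 31.2% lay wholly inside another gene on the same strand; of the lower genes these shares were 90.3%, 7.96% and 3.54%, and of all genes tested 69.5%, 17.7% and 11.6%. POU5F2, a POU factor gene inside FAM172A, read 12.9, 8.01 and 6.96 CPM in the scrambled, s46 and s47 libraries of number 1 and 1.46 to 4.92 (median 2.75) in the others (1.70 ± 0.21, SE; edgeR adjusted p 0.00228), while FAM172A itself was at 0.10. PLCB1-IT1, an RNA from an intron of PLCB1, read 7.30, 6.64 and 6.03 CPM against 0.978 to 2.86 (median 1.78; 1.87 ± 0.26, SE; adjusted p 0.00415), while PLCB1 was at 0.37 (adjusted p 0.0879). AC105150.1, inside TOX, was at 1.25 and TOX at 0.16; its call was lost without scrambled number 1 or s46 number 1 (up to 0.117). For 34 higher genes the enclosing gene was itself tested, which gave 28 distinct enclosing genes, since TAS2R14 encloses 6 of the 34 and PRH1 2. Of these 28, 27 lay above 0 and 5 were called, and their median difference was 0.29, against 1.47 over the 34 inner genes. Over all 16072 genes tested, 7731 lay above 0 and 1.4% were called. The enclosing genes were taken because a gene inside them was called higher. That choice can favour values above 0, so these counts carry no test of their own. Reads of an intron of the outer gene and of the inner gene cannot be told apart in these counts. Over all 1859 tested genes inside another gene on the same strand, the median difference was 0.47 with scrambled, 0.11 with s46 and -0.02 with s47. As a class these genes thus shifted mainly with scrambled, and not with s47.

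Higher genes that stand on their own included AFF3, ACVR1B, SEMA4A and CTSO. AFF3, a lymphoid member of the AF4 family of elongation factors, read 30.1, 23.4 and 23.5 CPM in number 1 against 9.44 to 15.1 (median 11.3; 1.13 ± 0.15, SE; edgeR adjusted p 0.00305). SEMA4A, a semaphorin of immune cells, read 26.9, 14.3 and 10.9 against 6.55 to 9.84 (median 7.17; 1.13 ± 0.16, SE; adjusted p 0.00508). ACVR1B, an activin receptor, read 2.51, 4.81 and 3.11 against 0.742 to 2.07 (median 1.57; 1.29 ± 0.22, SE; adjusted p 0.0146). All 3 were without overlap; ACVR1B lost its call without s46 number 1 (0.156). CTSO, a lysosomal cathepsin, was at 1.17 ± 0.24 (SE; adjusted p 0.0333) and kept its call without 3 of the 9 libraries, which were the scrambled ones (up to 0.231 without the others). Its difference was 0.32 with scrambled, 1.64 with s46 and 1.44 with s47, so it was small with scrambled. PLBD2, a lysosomal phospholipase-like protein, rested on 10.7 CPM in scrambled number 1 beside 1.30 and 2.55 with s46 and s47, against 0.869 to 2.02 elsewhere (1.73 ± 0.34, SE; adjusted p 0.0294), and was at 1.01 (adjusted p 0.161) without scrambled number 1; the call was also lost without s47 number 1 or 3 or scrambled number 3. The long non-coding AC092673.1 (1.63) lost its call without s46 number 1 (0.0638), and AC087280.2 (1.15) without s46 or s47 number 1 (up to 0.158). Named after their values were seen, the class I antigen gene HLA-B read 218.2, 189.4 and 210.4 CPM against 113.1 to 147.7 (0.67 ± 0.10, SE; adjusted p 0.00702), with a loss of the call without s46 number 1 (0.0664); such genes are highly similar to each other and uncertain.

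A run of neighbours on chromosome 12 (10824960 to 11176016) that holds bitter taste receptor genes was chosen after the calls were seen. Of its 21 tested genes, 20 lay above 0, 8 were called, all higher, and the median was 1.02. Over all 16072 genes tested, 7731 lay above 0, 1.4% were called and the median was -0.01. Since the run was chosen for its calls, its counts carry no test of their own. SMIM10L1 at the end of the run lay at -0.35 and was not called. TAS2R64P, a receptor pseudogene, read 8.87, 8.66 and 8.72 CPM in the scrambled, s46 and s47 libraries of number 1 and 2.40 to 4.36 (median 2.99) in the others (1.49 ± 0.18, SE; edgeR adjusted p 0.00206). TAS2R30 read 10.9, 8.62 and 9.32 CPM against 2.56 to 5.51 (median 3.17; 1.42 ± 0.22, SE; adjusted p 0.00696), and PRR4, a secreted proline-rich protein, 7.57, 7.82 and 6.52 against 2.26 to 4.20 (median 3.43; 1.15 ± 0.19, SE; adjusted p 0.0116). Number 1 was above all other libraries for these 3 genes. TAS2R14 and PRH1, whose annotated spans enclose most of the others, were at 0.66 and 0.77 and were not called. These genes resemble each other and overlap, so their reads are uncertain and not independent. Without s46 number 1, TAS2R64P alone of the 8 kept its call; TAS2R30 and PRR4 lost theirs only there (adjusted p 0.0724 and 0.136), TAS2R31 also without s47 number 1 (up to 0.0976) and AC134349.2 also without scrambled number 1 or s47 number 3 (up to 0.154). TAS2R43 lost its call without 7 of the 9 libraries, all but s47 number 2 and s46 number 3 (up to 0.139), and TAS2R46 and AC006518.2 without 8, all but s47 number 2 (up to 0.24 and 0.154).

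**Figure D4:**
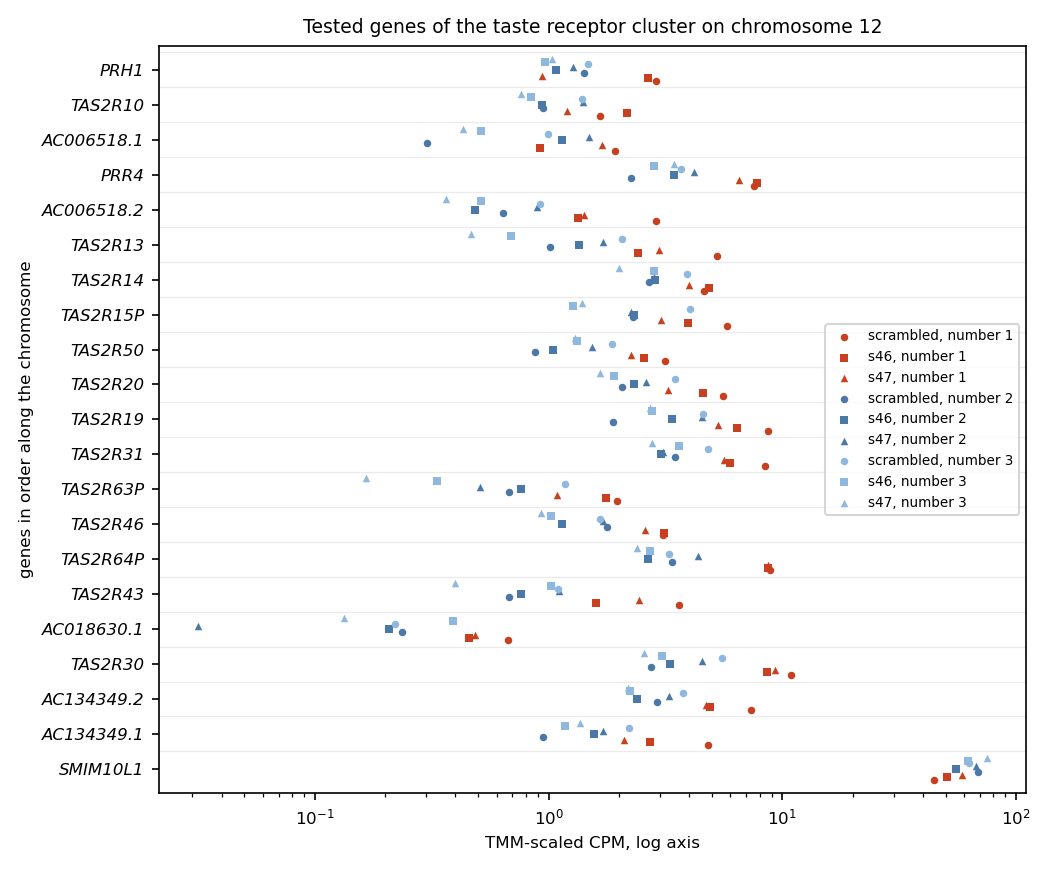
TMM-scaled CPM (horizontal log axis) of the 21 tested genes of the taste receptor run on chromosome 12, in order along the chromosome, in each of the 9 libraries, with number 1 in red. The red points lie to the right for most genes, and to the left for SMIM10L1.

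The number 1 difference was then compared between siRNA groups, since each group has its own libraries. Across the 9301 genes at a mean log2 CPM of at least 3, the differences with s46 and s47 correlated at r = 0.75, those with scrambled and s46 at 0.23 and those with scrambled and s47 at 0.092; over all 16072 genes these were 0.44, 0.32 and 0.23. Genes are not independent replicates, and all 3 groups share 1 scaling and 1 annotation, so these values are a description.

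**Figure D5:**
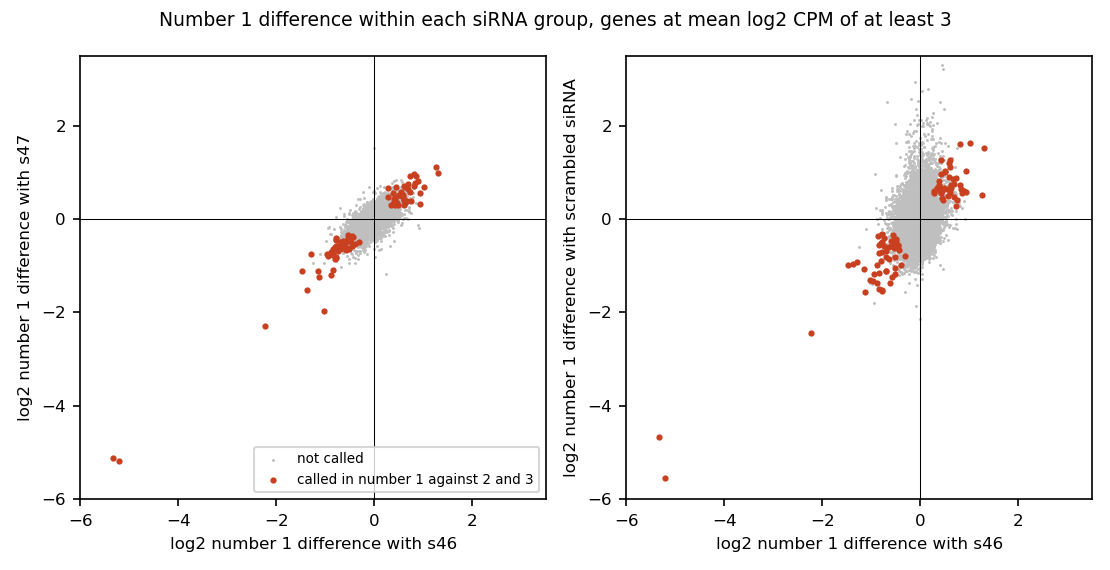
Log2 number 1 difference of each gene with s46 (horizontal axis) against that with s47 (left) or scrambled siRNA (right), for 9301 genes at a mean log2 CPM of at least 3. Called genes, in red, lie along the diagonal in both panels, which their call on these libraries makes likely. The other genes follow the diagonal with s47 and scatter vertically with scrambled.

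The test of the difference itself called 412 genes (2.56%; edgeR interaction contrast), 333 higher with scrambled (2.07%) and 79 lower (0.492%). This count rests on single libraries: it was 21 without scrambled number 2 and 1174 without scrambled number 3, 725 without s46 number 3 and 642 without s47 number 3. Of the 225 genes called for number 1, 1 was among the 412. Of the genes that the naming rule takes here, BICRA had the widest contrast. It encodes a subunit of a chromatin remodelling complex and stood at 9.28, 0.953 and 0.711 CPM in the scrambled, s46 and s47 libraries of number 1 and 1.2 to 2.26 in the other 6 (3.52 log2, edgeR adjusted p 0.00882). MT-CYB, cytochrome b of the mitochondrial genome, read 1193 CPM in scrambled number 1 and 121.3 to 162.5 in the rest (3.12, adjusted p 7.09e-05), while MT-ND6, its neighbour on the other strand, read 6.72 against 26.2 to 34.0 (-2.23, adjusted p 0.00414). Scrambled number 1 was thus the highest library for BICRA and MT-CYB and the lowest for MT-ND6. For BICRA the s46 and s47 libraries of number 1 lay on the other side, below all 6 of numbers 2 and 3.

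The mitochondrial transcripts were also taken as a list. Their summed level was 10199 CPM in scrambled number 1, 4805 and 4873 CPM in s46 and s47 number 1, and 4570 to 5139 CPM (median 4797) in the others. In the interaction 9 of 15 were higher and 2 lower, against 2.07% and 0.492% of all genes tested. The median number 1 difference was 1.22 with scrambled, 0.02 with s46 and 0.03 with s47. MT-ATP8, a subunit of ATP synthase, was the one member called for number 1, at 9.68, 8.31 and 7 CPM against 4.33 to 5.39 (median 5.26; 0.70 ± 0.15, SE; edgeR adjusted p 0.0415); the call was lost without any library but s47 number 2 (up to 0.173). Base composition moved with scrambled as well. In 5 equal classes of genes by exonic GC content, from low to high, the median number 1 difference with scrambled was -0.25, -0.18, -0.03, 0.13 and 0.29, and in the TLX1 siRNA libraries it was 0.10, 0.05, -0.01, -0.07 and -0.14. The order thus ran in opposite directions; its part in the calls was not tested beyond the fit with these trends removed, which called 572 genes for number 1.

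Number 2 against number 3 was the remaining contrast between numbers, and called 11 genes (0.0684%), 7 higher in number 2 and 4 lower, with 1703 at an unadjusted p under 0.05. The largest were F2RL3, a thrombin receptor (1.80, edgeR adjusted p 0.0342), TRIB3, a stress-induced pseudokinase (1.38, adjusted p 0.0367), and GPA33, a surface glycoprotein (-1.19, adjusted p 0.0367). None of the 11 was called for number 1; F2RL3 read 1.70, 0.877 and 1.31 CPM in number 1 and 1.45 to 9.30 elsewhere. TK1, thymidine kinase of S phase, was at -0.73 in this contrast (adjusted p 0.0411) and at 0.63 (adjusted p 0.136) for number 1, with 162.0, 120.7 and 135.7 CPM against 62.9 to 119.1. The fit shares its spread with the number 1 libraries. Without those 3 libraries it called 687 genes, and without scrambled number 2 it called 216. It called 0 without scrambled number 3 and without each s46 or s47 library of number 2 or 3 (796 to 1352 genes at an unadjusted p under 0.05), and with all 9 libraries DESeq2 called 155 and limma-voom 11. The counts for number 1 and for number 2 against number 3 therefore do not rank these differences.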

How the data were processed

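Total RNA of 9 ALL-SIL libraries was measured by stranded RNA-seq after ribosomal RNA depletion. Each deposited file holds whole-number counts of reads by gene, not normalized, after 4 lines for reads outside genes, which entered neither totals nor tests. Per the submitters' processing notes the build was GRCh38. The aligner, the counter and the annotation they used: not given in the sources used here. Column 4 was used as the sense strand, from which 21134650 to 33393740 reads per library were in genes. Of 58096 gene IDs, 53747 matched GENCODE 29 with the version, 3745 without it and 604 not at all.

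Groups and replicate numbers came from the titles. Counts were filtered with filterByExpr (minimum count 10), given TMM factors and fitted in edgeR 4.0.16 (R 4.3.3; robust quasi-likelihood, Benjamini-Hochberg over 16072 genes, threshold 0.05), with siRNA group as a term and 5 residual degrees of freedom; the interaction had 3 and number 2 against number 3 had 4. DESeq2 1.42.0 and limma 3.58.1 (voom), other scalings, filters, strands and left-out libraries were alternatives. On simulated counts for the number 1 comparison over 16072 genes, the fit recovered 89 of 100 genes set to a 2-fold change and 52 of 100 set to 1.5-fold, with 19 false calls. For the interaction these were 47, 8 and 14, and for number 2 against number 3 they were 82, 25 and 7. In each comparison false calls exceeded 0.05 of all calls. The simulated libraries varied independently, while most same-numbered libraries in the data varied together. The rate of false calls in the data is therefore not known from it.

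Named genes were TLX1, the 12 widest called differences each way among coding and long non-coding genes at a mean log2 CPM of at least 1 and on 1 side in all groups, up to 4 called members per list (or the 2 of lowest p), and up to 5 genes each way for the other contrasts. A gene that this rule takes is not reported here. The replicate numbers compared and all 31 gene lists were chosen with earlier results of these data known. Read shares were compared by an exact permutation test. Intervals are 95% exact and, like floors of 3 reads, cover counting error only.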

Additional observations from a re-analysis of the deposited data

Results flagged for a closer look

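Scrambled number 1 lay farther from the other 8 libraries than Dixon's limit for 9 samples allows in 4 read measures: 6.70% unmapped reads, 14.4% multimapping reads, 39.9% of reads in genes and 1.08% of reads on mitochondrial transcripts. Chance marks about 1 in 20 groups in this way.

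The number 1 difference with scrambled siRNA differed from that with the TLX1 siRNAs for 412 genes (edgeR interaction contrast). The named genes with a wider difference upward were BICRA (3.52), MT-CYB (3.12), ZBED3 (3.04), CBFA2T3 (2.97) and ATN1 (2.93), on the log2 scale. Those downward were SVOPL (-2.77), AC109347.1 (-2.39), MT-ND6 (-2.23), SLC35A1 (-1.48) and HIST1H3E (-1.44). For ZBED3, scrambled number 1 read 50.1 CPM, against 5.42 and 6.78 CPM in s46 and s47 number 1.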

How the results depend on the processing

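Among the recomputed values of named genes, 1065 kept their direction and side of the threshold, 243 lost the call and 0 reversed. The number 1 count of 225 was 699 with DESeq2, 1045 with no filter, 77 at 1 CPM in all 9 libraries, 13 against number 2 only, 572 with GC and length trends removed and 119 with a fold minimum of 1.2; leaving out 1 library gave 54 to 246. The interaction count of 412 was 1310 with DESeq2, 1656 with no filter, 46 against s46 only and 148 against s47 only, and 21 to 1174 on leaving out 1 library. Number 2 against number 3, with 11, gave 19 with library totals, 155 with DESeq2, 245 with no filter, 4 at 1 CPM in all 9 and 687 without the 3 number 1 libraries, and 0 to 216 on leaving out 1 library (edgeR; 796 to 2925 genes at an unadjusted p under 0.05). Without the scrambled libraries the number 1 difference in multimapping reads was -0.169 percentage points, in opposite-strand reads -0.194 and in mitochondrial reads -0.0068, against 2.39, 0.0955 and 0.191. The cause of these shifts was not tested.

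A fit with a replicate block (number as a term of 3 levels) called 331 genes for number 1. Deviations from the group means correlated between same-numbered libraries at -0.0299 to 0.436. Only the pair of scrambled and s47 number 2 (-0.0299) lay under 0.1. Pairs that differ in both number and siRNA group ran from -0.31 to 0.17, and every other same-numbered pair lay above that range. Since not every pair passed 0.1, the numbers were not taken to pair samples. The main fit therefore has no term for number 2 against number 3, although most same-numbered libraries varied together. Its p-values treat the 9 libraries as independent, which this shared variation goes against. Taken by number, the comparison is of 1 number with 2 others. Of 28 list medians, 8 moved by more than their spread without scrambled number 1.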
